A study of Mus musculus with 8 samples.

Results

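Ribosome production starts in the nucleolus, where RNA polymerase I (Pol I) transcribes the ribosomal RNA genes and a large set of factors cuts, modifies and folds the precursor RNA into the small (40S) and large (60S) subunits. The mRNA levels of 45 genes that encode this machinery were examined in mouse embryonic stem cells (ESCs) expressing BAZ2A with or without its TAM domain. The genes were chosen by symbol, and all 45 had an entry among the 50902 genes of the deposited table. They comprise 5 Pol I subunits, 7 factors of Pol I initiation and termination, 8 proteins of the small nucleolar ribonucleoproteins (snoRNPs), 2 adaptors, 4 nucleolar RNA-binding proteins and chaperones, 9 factors of the small subunit and 10 of the large subunit. RNA was sequenced in 4 libraries of ESCs expressing wild-type BAZ2A (BAZ2A-WT ESCs) and 4 libraries of ESCs expressing BAZ2A without the TAM domain (BAZ2A-ΔTAM ESCs).

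All 8 libraries came from the mouse ESC line E14 in N2B27 medium with LIF and 2i. Both lines carry a Flag- and HA-tagged BAZ2A transgene that the siRNA does not target, inserted with the PiggyBac transposase, and both received an siRNA against *Baz2a* and were collected 3 days later, so the endogenous gene was targeted in the controls too. According to the methods such lines were isolated as single-cell clones with a comparable BAZ2A level, and how many clones stand behind the 4 libraries of a condition is not given. Where it is 1, a difference between clones cannot be told apart from a difference made by the TAM domain. The sources used here do not say that the 4 libraries of a line were separate cultures, and the p-values then measure only the spread between libraries.

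BAZ2A, also called TIP5, is the large subunit of the chromatin remodelling complex NoRC, which is known for silencing a portion of the ribosomal RNA gene repeats in differentiated cells after recruitment by the termination factor TTF1. Its TAM domain binds RNA. Pol I is recruited by UBTF, by the selectivity factor SL1 (TBP with TAF1A to TAF1D) and by RRN3, which joins the polymerase to the promoter factors. The box C/D snoRNPs methylate ribosomal RNA, and the box H/ACA snoRNPs convert uridines in it to pseudouridine. Ribosomal RNA itself was not measured, because polyadenylated RNA was sequenced and ribosomal reads were removed, so the values below are mRNA levels of the machinery and not its output.

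The libraries held 6560881 to 8662855 reads on genes, and the 45 genes took 1.17% to 1.21% of them, with overlapping ranges in the conditions. The reads per gene and library ranged from 108 for *Taf1a* to 23733 for *Npm1*. *Baz2a*, counting endogenous and transgene reads together, had 9.95, 10.3, 10.5 and 11.2 RPKM (reads per kilobase of gene span, per 1000000 reads of the library) in BAZ2A-WT ESCs and 17.0, 18.6, 18.5 and 18.9 RPKM in BAZ2A-ΔTAM ESCs, so the lines differed in the level of the *Baz2a* transcripts as well as in the TAM domain. Its log2 fold change was 0.79 (SE 0.046, limma adjusted p = 3.4e-05). All 9 ESC markers were present, with 1804 to 16609 reads per library, and 5 of them were lower in BAZ2A-ΔTAM ESCs without overlap in RPKM: *Sox2* (log2 fold change -0.42, limma adjusted p = 6.9e-05), *Klf4* (-0.39, 4.5e-05), *Dppa5a* (-0.28, 0.000413), *Esrrb* (-0.20, 0.00176) and *Tdh* (-0.20, 0.0104). Of the lists of other cells, the summed reads in BAZ2A-WT and BAZ2A-ΔTAM ESCs were 186 to 217 and 154 to 249 for fibroblast, 47 to 55 and 56 to 73 for primitive endoderm, 487 to 513 and 474 to 620 for trophoblast and 269 to 308 and 191 to 332 for mesoderm markers. Most of these reads came from *Pdgfrb*, *Gata4*, *Tfap2c* and *T*, while *Col3a1* was at 0 in every library. In RPKM, *Gata4*, *Tfap2c* and *T* did not overlap between the conditions, *Tfap2c* was higher (log2 fold change 0.19, limma adjusted p = 0.0109) and *Eomes* lower (-0.26, adjusted p = 0.0359), while *T* did not pass (-0.16, adjusted p = 0.134). The summed neural progenitor markers (*Sox1*, *Pax6* and *Nes*, 3 of 3 above 0 in all libraries) had 222 to 268 reads in BAZ2A-WT ESCs and 103 to 151 reads in BAZ2A-ΔTAM ESCs. *Sox1* and *Nes* did not overlap in RPKM, and *Nes*, the one of these tested, fell by 0.75 on the log2 scale (limma adjusted p = 0.000293). The part of these marker differences in the results below was not tested.

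The 45 genes changed little in size, and those that changed moved in both directions. On the scale of log2(RPKM + 0.1), 44 of the 45 genes passed the filter of a mean of at least 0.1 RPKM, and *Taf1b* did not. Of the 44, 18 had a limma adjusted p under 0.05, which is 40.9%, against 35.8% of all 9000 genes tested. The 7 that rose in BAZ2A-ΔTAM ESCs were *Taf1d*, *Nop2*, *Nop16*, *Polr1b*, *Taf1a*, *Ttf1* and *Ddx21*, against a background of 19.9% of all genes higher. The 11 that fell were *Nop14*, *Ebna1bp2*, *Noc2l*, *Polr1a*, *Rrp12*, *Noc4l*, *Nop10*, *Gnl3*, *Nat10*, *Npm1* and *Wdr43*, against 15.9% of all genes lower. The split of the background depends on the scaling, with 55.5% of all calls higher here, 47.7% under quantile normalization and 48.5% by voom. The conditions did not overlap in RPKM for 18 of the 44 genes (40.9%), against 37.2% of all genes tested.

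The fold changes ran from -0.29 for *Nop14* to 0.35 for *Taf1d*, with a median of -0.01 against 0.01 over all genes tested. The median absolute log2 fold change was 0.09, against 0.13 over all genes. None of the 45 genes moved by as much as 0.58 on the log2 scale, the size the study used, in either direction. This held in limma and in voom on the recovered reads. Among all genes 3.79% passed that size with an unadjusted p under 0.05. For the 26 genes tested and not called, the 95% limma intervals of the log2 fold change lay between -0.26 and 0.34. Larger differences in either direction fell outside these intervals. The upper end was that of *Polr1e*, whose voom interval ran from 0.06 to 0.42.

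**Figure D1:**
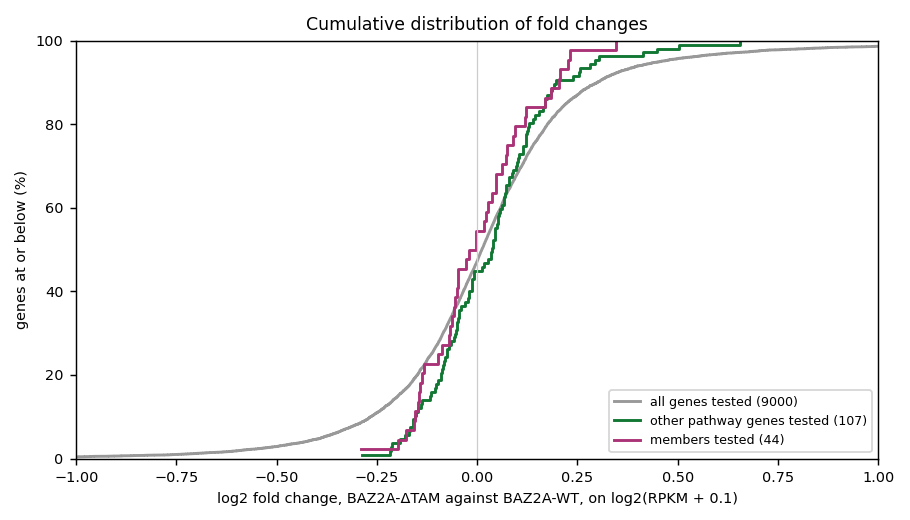
Cumulative share of genes (%, vertical axis) at or below each log2 fold change of BAZ2A-ΔTAM against BAZ2A-WT ESCs (horizontal axis, on log2(RPKM + 0.1)), for the 44 genes tested, 107 other pathway genes and all 9000 genes. The curves of the 44 genes, between -0.29 and 0.35, and of the other pathway genes are steeper than that of all genes. All 3 curves cross the middle close to 0.

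With voom on the reads recovered from the RPKM, which also tested *Taf1b*, 22 of 45 genes were called (48.9%), against 44.0% of the genes tested that way. All 18 calls were kept. The other 4 were *Polr1e* (voom log2 fold change 0.24, adjusted p = 0.0313), *Rrn3* (0.10, adjusted p = 0.0331) and *Ncl* (0.12, adjusted p = 0.00638), which were higher, and *Bop1* (-0.15, adjusted p = 0.0211), which was lower. Both shares were near their backgrounds, so the number of calls by itself sets these genes apart in neither fit.

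**Figure D2:**
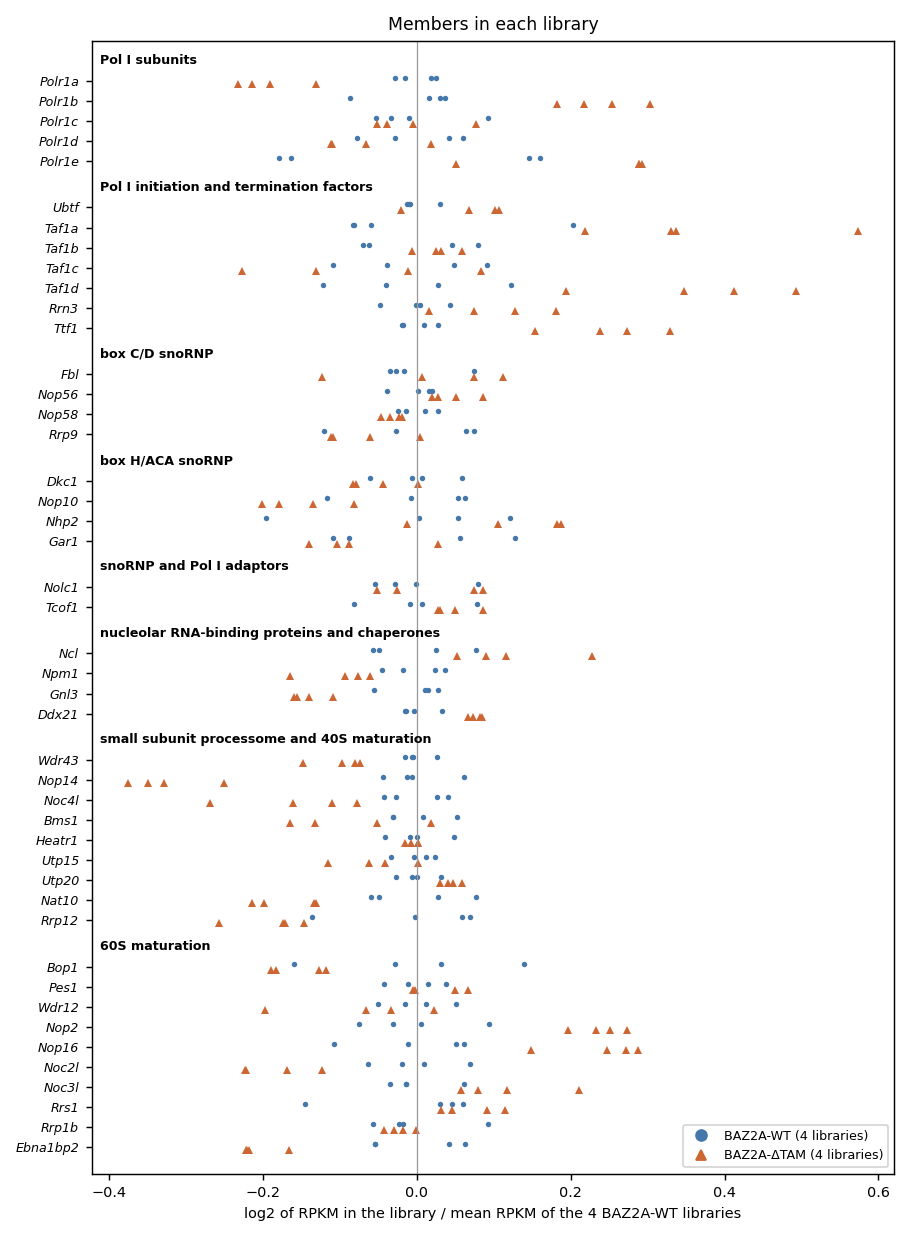
Values of the 45 genes in each library as log2 of the RPKM over the mean RPKM of the 4 BAZ2A-WT libraries (horizontal axis), grouped by role. Circles are BAZ2A-WT and triangles BAZ2A-ΔTAM libraries, with 4 each, and for 18 of the 44 genes tested the circles and triangles do not overlap.

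The letters CACGTG, an E-box that reads the same on both strands and is known as a binding sequence of MYC, a regulator of ribosome biogenesis genes, were searched in the RefSeq promoter windows (build GRCm38.p6, 250 bases before to 50 after the start). Of the 45 genes, 39 had such a window, and 5 of them held the letters (12.8%), against 8.09% of all gene symbols with a window. In *Nop2*, which rose, and *Rrn3*, higher by voom but not by limma on all 8 libraries, they lie before the start. The letters start at position -60 in *Nop2* and at -215 and -48 in *Rrn3*. In *Utp20*, *Pes1* and *Wdr43* they begin 38, 3 and 18 bases after the start, and only *Wdr43* of these was called, with a fall. The 250 bases before the start of the first pair are shown, since they hold the letters upstream, with CACGTG in capitals; they are on the plus strand of chr6:125131633-125131882 (*Nop2*) and chr16:13780449-13780698 (*Rrn3*).
Nop2: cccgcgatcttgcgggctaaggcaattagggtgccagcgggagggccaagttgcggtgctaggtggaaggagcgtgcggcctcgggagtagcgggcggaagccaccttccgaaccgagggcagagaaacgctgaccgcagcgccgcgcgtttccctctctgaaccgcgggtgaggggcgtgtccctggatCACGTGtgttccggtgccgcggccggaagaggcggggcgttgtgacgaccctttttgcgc
Rrn3: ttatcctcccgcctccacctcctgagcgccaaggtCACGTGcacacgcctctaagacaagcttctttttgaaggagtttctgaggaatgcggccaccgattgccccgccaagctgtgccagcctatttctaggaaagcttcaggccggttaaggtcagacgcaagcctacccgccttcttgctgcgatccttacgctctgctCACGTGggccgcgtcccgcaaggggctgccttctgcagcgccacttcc
The match is a description of these windows and not of binding, which the present data do not measure.

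The Pol I subunits were split, with the largest subunit lower and the second largest higher. *Polr1a*, which encodes the largest subunit (mm10 chromosome 6, 71909053 to 71984935), had 0.487, 0.498, 0.501 and 0.482 RPKM in BAZ2A-WT ESCs and 0.419, 0.431, 0.424 and 0.449 RPKM in BAZ2A-ΔTAM ESCs. Every BAZ2A-ΔTAM library was below every BAZ2A-WT library, and the mean fell from 0.492 ± 0.00889 to 0.431 ± 0.0132 RPKM (SD, n = 4), a log2 fold change of -0.16 (SE 0.026, limma adjusted p = 0.00305). *Polr1b*, which encodes the subunit that forms the catalytic centre with it (chromosome 2, 129100995 to 129126594), had 0.559, 0.513, 0.556 and 0.550 RPKM against 0.618, 0.671, 0.633 and 0.649 RPKM. Here every BAZ2A-ΔTAM library was above, and the mean rose from 0.544 ± 0.0214 to 0.643 ± 0.0229 RPKM (SD, n = 4; log2 fold change 0.21, SE 0.035, limma adjusted p = 0.00309). Since both are measured per kilobase of genomic span, their ratio within a library is useful only between libraries, and it was 1.03 to 1.15 in BAZ2A-WT and 1.44 to 1.56 in BAZ2A-ΔTAM ESCs, as a description of the pair chosen after its values were seen.

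The other subunits did not pass the limma threshold. *Polr1c*, which Pol I shares with Pol III, had a log2 fold change of 0.00 (95% interval -0.10 to 0.09, limma adjusted p = 0.958). *Polr1d*, its partner in both polymerases, was at -0.05 (adjusted p = 0.337). *Polr1e*, which encodes a subunit of the initiation and elongation heterodimer, was at 0.17 (adjusted p = 0.108), with 182 to 291 reads per library. The conditions overlapped for all 3.

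Of the 6 factors of initiation and termination tested, 3 rose and 0 fell, against 19.9% and 15.9% of all genes. *Taf1d*, which encodes an SL1 subunit (chromosome 9, 15306214 to 15316991), had 1.67, 1.57, 1.75 and 1.86 RPKM in BAZ2A-WT ESCs and 2.41, 1.96, 2.18 and 2.28 RPKM in BAZ2A-ΔTAM ESCs. On log2(RPKM + 0.1) this was the largest change of the 44 genes, while voom gave *Taf1d* and *Taf1a* the same 0.36. It rose without overlap from 1.71 ± 0.123 to 2.21 ± 0.191 RPKM (SD, n = 4; log2 fold change 0.35, SE 0.071, limma adjusted p = 0.00755). *Taf1a*, another SL1 subunit (chromosome 1, 183388981 to 183410198), had 0.102, 0.103, 0.125 and 0.104 RPKM against 0.126, 0.161, 0.137 and 0.136 RPKM. The highest BAZ2A-WT library of *Taf1a* was just under the lowest BAZ2A-ΔTAM library. Its log2 fold change was 0.20 (SE 0.060, limma adjusted p = 0.0314), and 0.36 by voom (adjusted p = 0.00602), which adds no 0.1 RPKM to its low values. It passed in 2 of 8 fits that left out 1 library each (adjusted p from 0.0208 to 0.0776).

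*Ttf1*, which encodes the factor that stops Pol I and recruits NoRC, lies on chromosome 2 from 29060262 to 29087656. It had 0.254, 0.254, 0.262 and 0.259 RPKM in BAZ2A-WT ESCs and 0.311, 0.303, 0.286 and 0.323 RPKM in BAZ2A-ΔTAM ESCs, with a narrow spread among the former. The mean rose from 0.257 ± 0.00411 to 0.306 ± 0.0154 RPKM (SD, n = 4; log2 fold change 0.18, SE 0.033, limma adjusted p = 0.00402), and the call was kept in all 8 fits without 1 library.

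*Ubtf*, which encodes the architectural factor of active ribosomal RNA genes (chromosome 11, 102304560 to 102319742), had 2.91, 2.83, 2.83 and 2.82 RPKM against 2.80, 3.07, 2.98 and 3.05 RPKM. A single BAZ2A-ΔTAM library, replicate 1, was below all BAZ2A-WT libraries, and the log2 fold change of 0.06 did not pass (SE 0.032, limma adjusted p = 0.175); without that library it did (adjusted p = 0.0264). *Rrn3*, which encodes the factor that makes Pol I competent for initiation (chromosome 16, 13780699 to 13814840), had 1.29, 1.29, 1.33 and 1.25 RPKM against 1.30, 1.46, 1.41 and 1.36 RPKM. Its log2 fold change of 0.09 did not pass either (SE 0.038, limma adjusted p = 0.0919), nor with any library left out other than BAZ2A-ΔTAM replicate 1 (adjusted p = 0.0349). The same library was thus the lowest of its condition for both genes.

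*Taf1c*, a further SL1 subunit, had a log2 fold change of -0.06 (95% interval -0.20 to 0.09, limma adjusted p = 0.516). *Taf1b*, which was under the filter, had 0.0668, 0.0665, 0.0720 and 0.0737 RPKM against 0.0695, 0.0713, 0.0726 and 0.0710 RPKM, from 188 to 248 reads per library over a span of 60.2 kb. The conditions overlapped (two-sided exact permutation test, p = 0.486), and voom gave a log2 fold change of 0.03 (adjusted p = 0.801). Of the 3 SL1 subunits tested by limma, 2 were thus higher, against 19.9% of all genes, and 1 of them, *Taf1a*, lost its call in other settings.

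Of the 8 snoRNP proteins 1 was called, against 35.8% of all genes, and the intervals of the others reached from -0.21 (*Gar1*) to 0.29 (*Nhp2*). Of the box C/D proteins, *Fbl*, which encodes the methyltransferase fibrillarin (chromosome 7, 28169710 to 28179269), had 2.51, 2.52, 2.71 and 2.54 RPKM against 2.36, 2.71, 2.58 and 2.78 RPKM, and the BAZ2A-ΔTAM libraries spanned the whole range of the others. Its log2 fold change was 0.02 (95% interval -0.10 to 0.14, limma adjusted p = 0.821). The core proteins *Nop56* (0.05, adjusted p = 0.171) and *Nop58* (-0.03, adjusted p = 0.335) and the U3-specific protein *Rrp9* (-0.06, adjusted p = 0.344) were not called, although the conditions of *Nop56* did not overlap.

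Of the box H/ACA proteins, *Dkc1*, which encodes the pseudouridine synthase dyskerin (chromosome X, 75095854 to 75109777), had 3.63, 3.66, 3.50 and 3.80 RPKM against 3.45, 3.54, 3.44 and 3.65 RPKM. The ranges overlapped, and the log2 fold change was -0.05 (95% interval -0.12 to 0.03, limma adjusted p = 0.275). *Nop10*, a small structural protein of the same particle, was the one called, with a log2 fold change of -0.15 (SE 0.046, limma adjusted p = 0.0415). Its ranges of 7.21 to 8.17 and 6.80 to 7.39 RPKM overlapped, and it passed in 2 of 8 fits without 1 library (adjusted p from 0.00955 to 0.103). *Nhp2* (0.12, adjusted p = 0.253) and *Gar1* (-0.07, adjusted p = 0.41), the other core proteins, were not called. The adaptors *Nolc1*, a snoRNP chaperone, and *Tcof1*, which links UBTF and Pol I to processing, had log2 fold changes of 0.02 (adjusted p = 0.735) and 0.05 (adjusted p = 0.335).

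Of the 4 nucleolar RNA-binding proteins and chaperones, 2 fell and 1 rose, against backgrounds of 15.9% lower and 19.9% higher, all by small amounts. *Npm1*, which encodes the nucleolar chaperone nucleophosmin (chromosome 11, 33152287 to 33163206), had 38.5, 37.8, 39.7 and 40.0 RPKM in BAZ2A-WT ESCs and 34.8, 36.6, 37.0 and 37.4 RPKM in BAZ2A-ΔTAM ESCs. It fell without overlap from 39.0 ± 1.02 to 36.5 ± 1.15 RPKM (SD, n = 4; log2 fold change -0.10, SE 0.030, limma adjusted p = 0.0375), and passed in 2 of 8 fits without 1 library (adjusted p from 0.0382 to 0.0903). *Ncl*, which encodes nucleolin, a binder of precursor ribosomal RNA (chromosome 1, 86344719 to 86359400), had 18.1, 18.0, 19.1 and 19.8 RPKM against 20.3, 19.4, 19.9 and 21.9 RPKM. Only the highest BAZ2A-WT library overlapped the others, and its log2 fold change of 0.12 did not pass (SE 0.046, limma adjusted p = 0.075). It passed in limma without BAZ2A-WT replicate 4 (adjusted p = 0.0482) or with replicate number as a block (adjusted p = 0.0261). It also passed in voom with all 8 libraries (0.12, adjusted p = 0.00638).

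*Npm1* and *Ncl* supplied more reads than the other genes of the group. *Npm1* gave 23.6% to 24.6% of the reads of the 45 genes in BAZ2A-WT and 22.0% to 22.9% in BAZ2A-ΔTAM ESCs, and *Ncl* 15.1% to 16.3% and 16.1% to 17.8%. *Gnl3*, which encodes nucleostemin, a GTP-binding nucleolar protein of stem cells, fell from 5.09 to 5.39 RPKM to 4.74 to 4.91 RPKM (log2 fold change -0.14, SE 0.026, limma adjusted p = 0.0049). *Ddx21*, which encodes an RNA helicase of precursor processing, rose by 0.07 on the log2 scale (SE 0.020, limma adjusted p = 0.0245), without overlap, and passed in 3 of 8 fits without 1 library (adjusted p from 0.0175 to 0.0679).

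Of the factors of the small subunit, 5 of 9 were lower, against the background of 15.9%, 0 were higher, and 8 of 9 fold changes were below 0. The median log2 fold change of these 9 was -0.09, against 0.01 over all genes. *Nop14*, which encodes a component of the small subunit processome, the large particle that assembles on the precursor RNA, lies on chromosome 5 from 34638536 to 34660148. It had 0.945, 0.925, 0.995 and 0.950 RPKM in BAZ2A-WT ESCs and 0.748, 0.759, 0.735 and 0.801 RPKM in BAZ2A-ΔTAM ESCs. The gap between the conditions was wider than either range, and the mean fell from 0.953 ± 0.0296 to 0.761 ± 0.0287 RPKM (SD, n = 4; log2 fold change -0.29, SE 0.033, limma adjusted p = 0.000539), with the call kept without any 1 library.

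The other 4 that fell were smaller. *Noc4l*, the partner of NOP14, was at -0.15 (SE 0.043, limma adjusted p = 0.0314), and passed in 4 of 8 fits without 1 library (adjusted p from 0.0254 to 0.0782). *Rrp12*, a factor of pre-40S export, was at -0.16 (SE 0.044, adjusted p = 0.0272), and passed in 3 of 8 (0.00547 to 0.0703). *Nat10*, the acetyltransferase of 18S ribosomal RNA, was at -0.14 (SE 0.035, adjusted p = 0.0158), and passed in 8 of 8. *Wdr43*, a processome subunit, was at -0.09 (SE 0.024, adjusted p = 0.0242), and passed in 5 of 8 (0.0399 to 0.0637). In all 4 the conditions did not overlap.

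The remaining small subunit factors were not called. The GTPase *Bms1* was at -0.07 (limma adjusted p = 0.203) and *Utp15*, a processome subunit that binds the precursor early, at -0.05 (adjusted p = 0.229). *Heatr1*, a processome subunit also needed for Pol I transcription, was at 0.00 (95% interval -0.06 to 0.05, adjusted p = 0.92), and *Utp20*, the only one above 0, at 0.04 (adjusted p = 0.232). The conditions overlapped for all 4.

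**Figure D3:**
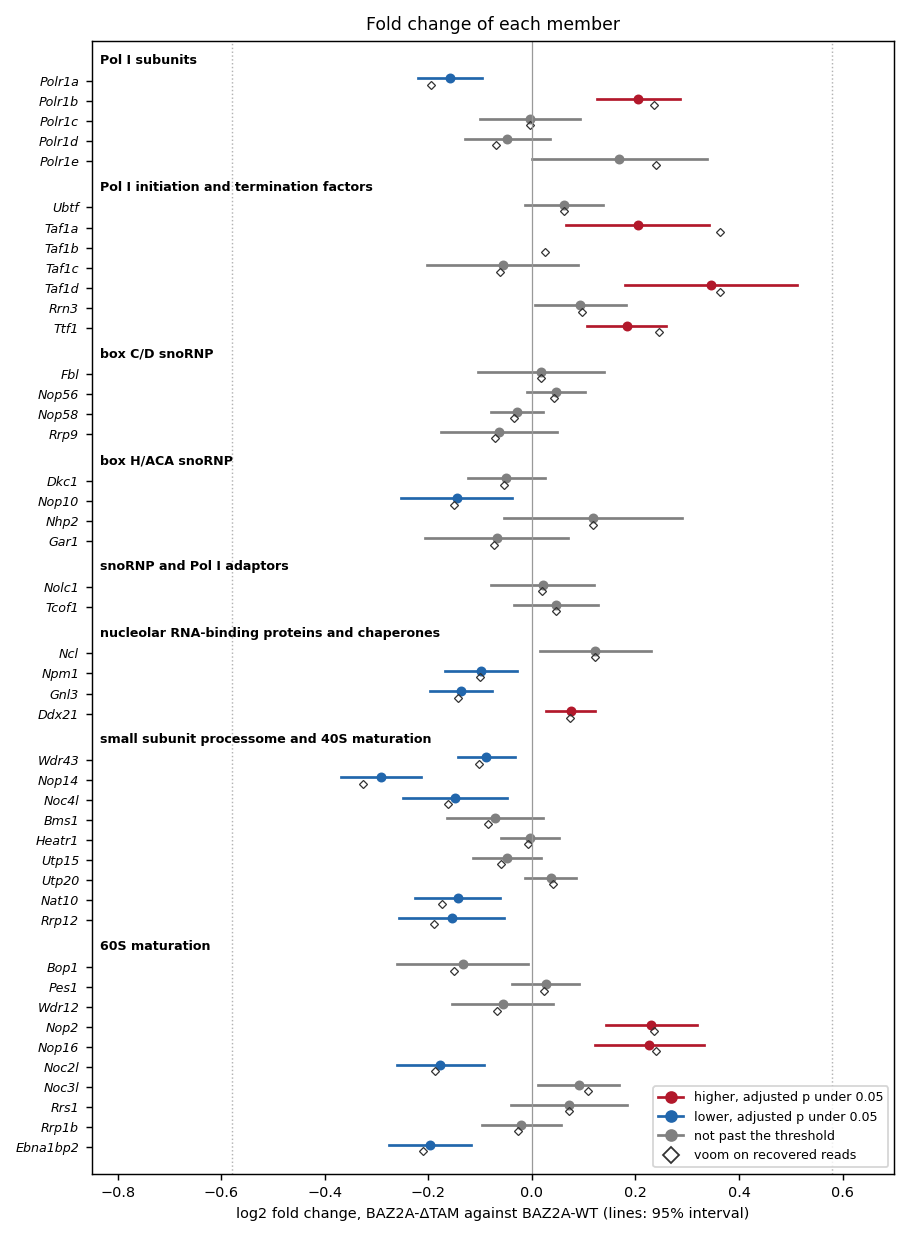
Log2 fold change of each gene in BAZ2A-ΔTAM against BAZ2A-WT ESCs (horizontal axis) with its 95% interval, from limma on log2(RPKM + 0.1), and from voom on recovered reads (open diamonds), grouped by role. Red marks the 7 genes higher, blue the 11 lower and grey the others, and no gene reaches the dotted lines at 0.58 on either side.

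Of the 10 factors of the large subunit 2 rose and 2 fell, which is near the background of 19.9% higher and 15.9% lower. *Nop2*, which encodes a methyltransferase of 28S ribosomal RNA (chromosome 6, 125131909 to 125144753), had 2.17, 2.37, 2.23 and 2.11 RPKM in BAZ2A-WT ESCs and 2.54, 2.64, 2.61 and 2.68 RPKM in BAZ2A-ΔTAM ESCs. It rose without overlap from 2.22 ± 0.111 to 2.62 ± 0.0584 RPKM (SD, n = 4; log2 fold change 0.23, SE 0.038, limma adjusted p = 0.00276), and is the gene whose promoter window with an E-box is printed above. *Nop16*, a factor of 60S assembly (chromosome 13, 54584185 to 54590090), had 1.58, 1.57, 1.41 and 1.51 RPKM against 1.68, 1.80, 1.83 and 1.85 RPKM. It too rose without overlap (log2 fold change 0.23, SE 0.045, limma adjusted p = 0.00667).

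*Noc2l*, which encodes a factor that accompanies pre-60S particles and is also known as an inhibitor of histone acetylation (chromosome 4, 156236010 to 156247616), had 2.75, 2.92, 2.81 and 2.67 RPKM in BAZ2A-WT ESCs and 2.39, 2.56, 2.39 and 2.48 RPKM in BAZ2A-ΔTAM ESCs. The mean fell from 2.79 ± 0.107 to 2.45 ± 0.0816 RPKM (SD, n = 4; log2 fold change -0.18, SE 0.036, limma adjusted p = 0.00719). *Ebna1bp2*, a nucleolar factor of early 60S assembly (chromosome 4, 118620799 to 118627776), had 2.55, 2.73, 2.77 and 2.55 RPKM against 2.36, 2.27, 2.28 and 2.27 RPKM. It fell without overlap, with 3 of the 4 BAZ2A-ΔTAM libraries almost equal (log2 fold change -0.20, SE 0.034, limma adjusted p = 0.00334). All 4 of these calls were kept when any 1 library was left out.

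The PeBoW complex, which is required for maturation of the large subunit RNAs and consists of PES1, BOP1 and WDR12, was not called by limma. *Bop1* had a log2 fold change of -0.13 (SE 0.055, limma adjusted p = 0.094; 0.0182 without BAZ2A-WT replicate 4), *Pes1* of 0.03 (adjusted p = 0.498) and *Wdr12* of -0.06 (adjusted p = 0.337). *Noc3l*, another NOC family member, was at 0.09 (adjusted p = 0.074), *Rrs1*, which helps to load the 5S particle, at 0.07 (adjusted p = 0.284), and *Rrp1b* at -0.02 (adjusted p = 0.67). The conditions overlapped for these 6 genes. Among the NOC family the values thus stood at -0.18 for *Noc2l*, 0.09 for *Noc3l* and -0.15 for *Noc4l*.

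Among the assembly factors of the 45 genes, the widest opposite changes in limma were those of *Nop2* and *Nop14*, a pair chosen after its values were seen. The ratio of their RPKM was 2.22 to 2.56 in BAZ2A-WT ESCs and 3.34 to 3.54 in BAZ2A-ΔTAM ESCs. As this ratio is taken within each library, it does not depend on how the libraries are scaled to each other, and it is given with no test.

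Levels were compared between genes only as reads per kilobase of exon per 1000000 reads on genes, with exon lengths from GENCODE vM21 (all exons of a gene merged), since the deposited RPKM divide by the genomic span. On this scale the genes spanned 190-fold in BAZ2A-WT ESCs. *Npm1* was highest at 1410 ± 40.3 (SD, n = 4), followed by *Ncl* at 225 ± 10.6 and *Nop56* at 217 ± 3.29, whose ranges overlapped. The lowest were *Wdr12* at 9.17 ± 0.258, *Polr1e* at 8.00 ± 1.02 and *Taf1c* at 7.42 ± 0.436. *Wdr12* had the longest merged exons of the group, 10.6 kb, so its place in the order depends on that length. In 31 of the 44 pairs of neighbours in this order the ranges of the 4 libraries overlapped, so most neighbours were not separated by their spread.

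Among the Pol I factors, *Taf1d* stood far above the other SL1 subunits on the exon scale, at 99.2 ± 7.41 against 11.7 ± 0.643 for *Taf1b*, 10.5 ± 1.05 for *Taf1a* and 7.42 ± 0.436 for *Taf1c* (SD, n = 4). *Polr1a* at 27.2 ± 0.426 was above *Polr1b* at 20.2 ± 0.826 in BAZ2A-WT ESCs, while in BAZ2A-ΔTAM ESCs the pair stood at 23.8 ± 0.707 and 23.8 ± 0.767. The catalytic subunits thus differed on the exon scale in the former and were level in the latter. Exon lengths are those of the annotation, so this order between genes holds only as far as these exons are the ones transcribed here.

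**Figure D4:**
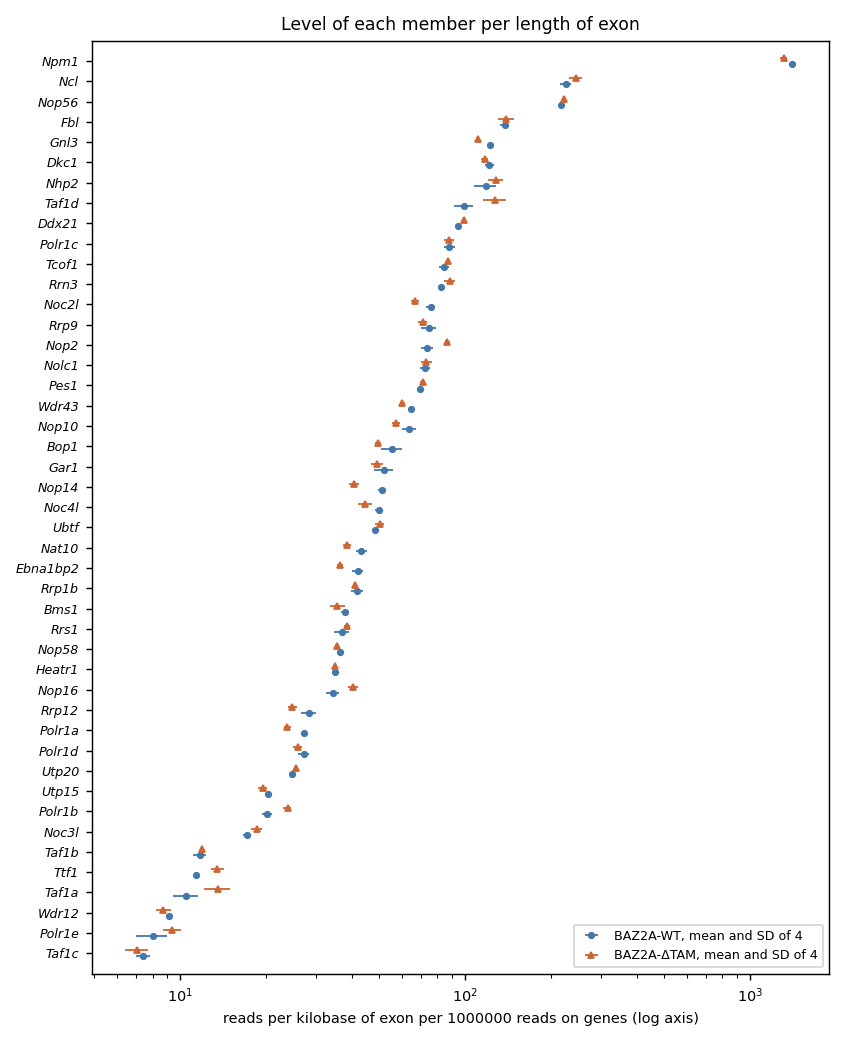
Level of each of the 45 genes as reads per kilobase of exon per 1000000 reads on genes (horizontal axis, log scale), with the mean and SD of 4 libraries for BAZ2A-WT (circles) and BAZ2A-ΔTAM ESCs (triangles), in the order of the BAZ2A-WT mean. *Npm1* at 1410 stands apart at the top, and *Wdr12*, *Polr1e* and *Taf1c* are at the bottom.

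Another 114 genes of the same pathway were measured, and 107 of them were tested. Of these 24 were higher and 14 lower, which is 35.5%, close to the background of 35.8%, with a median log2 fold change of 0.04. With quantile normalization the split turned to 17 higher and 20 lower. By role, 9 of 38 other small subunit factors rose and 4 fell, and 9 of 42 other large subunit factors rose and 6 fell. Of 7 other snoRNP proteins and assembly factors 3 rose (*Snu13*, *Naf1* and *Znhit3*), and of 12 exosome genes 1 rose and 3 fell. The other small subunit factors had a median of 0.04, against -0.09 for the 9 described above.

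The only one of these past 0.58 in limma was *Cd3eap*, the older symbol of *Polr1g*, which encodes a Pol I subunit that partners with POLR1E (chromosome 7, 19356014 to 19359483). It had 1.40, 1.69, 1.63 and 1.39 RPKM in BAZ2A-WT ESCs and 2.30, 2.56, 2.51 and 2.46 RPKM in BAZ2A-ΔTAM ESCs, and rose without overlap (log2 fold change 0.66, SE 0.070, limma adjusted p = 0.000389). It shares part of its span with *Ercc1* on the opposite strand, which had a log2 fold change of 0.07 (adjusted p = 0.102). *Polr2l*, a small subunit common to all 3 nuclear polymerases, had 0.301, 0.421, 0.458 and 0.349 RPKM against 0.588, 0.544, 0.516 and 0.674 RPKM. It rose without overlap (log2 fold change 0.50, SE 0.116, limma adjusted p = 0.0122), on 49 to 128 reads per library. By voom both were past 0.58, with *Cd3eap* at 0.69 (adjusted p = 7.0e-08) and *Polr2l* at 0.61 (adjusted p = 0.00125). Of the 8 other Pol I subunits listed, 2 rose and *Polr2e* fell (-0.16, adjusted p = 0.037), which is 37.5% called, near the background of 35.8%.

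The next largest rise without overlap, and the 3 largest falls, among the other pathway genes were in subunit assembly. *Krr1*, a small subunit processome factor, had 0.615, 0.601, 0.587 and 0.659 RPKM against 0.875, 0.898, 0.835 and 0.898 RPKM, and rose (log2 fold change 0.45, SE 0.038, limma adjusted p = 0.000145). *Imp3*, which binds the U3 snoRNA, had 6.23, 6.54, 7.21 and 7.14 RPKM against 5.63, 5.39, 6.00 and 5.13 RPKM, and fell (-0.29, SE 0.063, adjusted p = 0.00997). *Rrp1*, a large subunit factor and the paralog of *Rrp1b*, had 2.49, 2.31, 2.46 and 2.40 RPKM against 2.12, 2.07, 2.04 and 2.02 RPKM, and fell (-0.22, SE 0.029, adjusted p = 0.00116). *Utp11*, a processome factor, had 0.567, 0.541, 0.609 and 0.587 RPKM against 0.469, 0.512, 0.491 and 0.458 RPKM, and fell (-0.22, SE 0.042, adjusted p = 0.00618). None of these 4 overlapped between the conditions.

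Reads of 10 of the 45 genes could include those of a neighbour, because they overlap another entry on the opposite strand that reached 30 reads and the use of strand in counting is not given in the sources used here. *Taf1d*, which rose, overlaps *Cep295* (log2 fold change -0.23, limma adjusted p = 0.047) and *4931406C07Rik* (-0.18, adjusted p = 0.0278), which fell. *Bop1* overlaps *Mroh1* (-0.17, adjusted p = 0.0266), *Gnl3* overlaps *Pbrm1* (-0.08, adjusted p = 0.243), and *Nop56* overlaps *Idh3b* (-0.24, adjusted p = 0.00623). The part of shared reads in these values was not tested. The other 6 with such an overlap were *Polr1e*, *Rrp9*, *Dkc1*, *Nhp2*, *Heatr1* and *Wdr12*, none of which was called by limma.

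The spans of 7 of the genes hold 27 entries of small nucleolar RNAs, with 8 of them in *Taf1d*, and others in *Nop56*, *Nop58*, *Dkc1*, *Ncl*, *Gnl3* and *Wdr43*. These RNAs guide the enzymes encoded by genes of the same group. In these polyadenylated libraries 15 of the 27 entries were at 0 in all libraries, and none exceeded 24 reads, so their levels are not compared. By position, the medians of all genes tested on the chromosomes of the 45 genes ran from -0.05 on chromosome X to 0.05 on chromosome 7, and their part in the changes of single genes was not tested.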

How the data were processed

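Polyadenylated RNA of 8 libraries was sequenced, and each library's condition was taken from its label. After adapter trimming and removal of ribosomal reads, the authors mapped the rest to mm10 with STAR, measured exon coverage and deposited an RPKM value per gene and library, with no pooling of replicates. The submitters' processing notes name Trimmomatic 0.36. The annotation release, the use of strand and the handling of multimapping reads are not given in the sources used here, so close paralogs and overlapping genes are uncertain.

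Within a library, the deposited RPKM times the genomic span were multiples of 1 smallest value (99.5% of values above 0 within 0.02 of a whole number), which was taken as 1 read. The reads on genes were 14.8% to 15.0% of the library totals these steps imply. Of 51288 entries, 386 repeated ones were set aside. Fold changes came from limma 3.58.1 (R 4.3.3) on log2(RPKM + 0.1), which understates the change of low genes, for genes averaging 0.1 RPKM or more, with eBayes and a mean-variance trend, no covariates and Benjamini-Hochberg adjustment over all 9000 genes. Adjusted p-values without another name are from this fit. As an alternative, voom was run on the recovered reads, for genes averaging 10 reads or more. The procedure was tested on simulated data. *Taf1b* was tested with an exact permutation test (scipy 1.17.1, Python 3.11.15). Other alternatives changed the pseudocount, filter, scaling, variance model and replicate block, and left out each library in turn.

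The members and lists were chosen with earlier results of these data known. Values in every library are given for the 10 genes with the largest change among those called without overlap, the defining gene of each role, genes under the filter, the 3 largest rises and falls of the other pathway genes, and *Baz2a*. Of 115 other pathway genes, 114 were matched. Exon lengths came from GENCODE vM21 and promoters from RefSeq (GRCm38.p6). ChIP-seq, imaging and proteomic data were not used here.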

Additional observations from a re-analysis of the deposited data

Results flagged for a closer look

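In 6 of the 104 groups of 4 libraries checked, 1 library lay apart from the other 3 by Dixon's test, where chance gives about 1 in 20. For *Polr1e*, BAZ2A-ΔTAM replicate 1 had 0.236 RPKM, while the others had 0.279. For *Ubtf*, BAZ2A-WT replicate 1 had 2.91 RPKM against 2.82 to 2.83. For *Taf1a*, BAZ2A-WT replicate 3 had 0.125 RPKM against 0.102 to 0.104. For *Fbl*, BAZ2A-WT replicate 3 had 2.71 RPKM against 2.51 to 2.54. For *Rrs1*, BAZ2A-WT replicate 4 had 4.96 RPKM against 5.60 to 5.72. For *Ebna1bp2*, BAZ2A-ΔTAM replicate 1 had 2.36 RPKM against 2.27 to 2.28, which is still below all BAZ2A-WT libraries.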

How the results depend on the processing

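Of the 18 calls, 11 were kept in all 20 other settings where the gene was tested (*Polr1a*, *Polr1b*, *Taf1d*, *Ttf1*, *Gnl3*, *Nop14*, *Nat10*, *Nop2*, *Nop16*, *Noc2l* and *Ebna1bp2*), and none reversed. The other 7 lost the call in 4 (*Wdr43*) to 9 (*Npm1* and *Taf1a*) settings, and the cause was not tested. The 7 genes higher and 11 lower became 6 and 7 with no filter, where more genes were tested, and 4 and 6 under a filter of 1 RPKM, where 26 were tested. Quantile normalization gave 5 and 12. With each library left out, the numbers ranged from 5 to 9 higher and from 6 to 11 lower, and they were lowest for the genes lower without BAZ2A-WT replicate 3. Over all genes, 3225 of 9000 were called in the limma fit described above, 3758 of 25439 with no filter and 989 of 2148 under 1 RPKM. Quantile normalization called 3290 of 9000, and 2618 to 3051 were called with each library left out. None of the 45 genes passed 0.58 in any setting run. The median log2 fold change was -0.01, and 0.019 under a filter of 1 RPKM, -0.037 with quantile normalization and -0.02 to 0.00 with each library left out. The 24 other pathway genes higher and 14 lower became 11 and 7 under a filter of 1 RPKM, 17 and 20 with quantile normalization, 27 and 20 by voom, and 16 to 26 higher and 9 to 16 lower with each library left out.

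The sources used here do not say that replicate numbers pair the libraries. The correlations of same-numbered libraries' deviations were 0.06, 0.03, 0.02 and 0.06, all above 0. Of the BAZ2A-WT libraries, only replicate 3 correlated slightly better with a library of another number, BAZ2A-ΔTAM replicate 1 (0.03). Correlations this small do not decide whether the libraries were paired. With the replicate block, 6 genes were higher and 8 lower, and 2796 of all 9000 genes were called. In voom with the replicate block 11 were higher and 12 lower, with 23 of the other pathway genes lower and 5819 of all 12657 genes called.

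Directions that reversed were all of genes not called and close to 0. *Polr1c* reached 0.0012 by voom with median-ratio scaling. *Fbl* (-0.016), *Nop56* (-0.025), *Nolc1* (-0.0093) and *Pes1* (-0.014) were below 0 with quantile normalization. With each library left out, *Polr1c* ranged from -0.030 to 0.027 (above 0 without BAZ2A-WT replicate 2 or BAZ2A-ΔTAM replicate 1 or 2), *Fbl* from -0.013 to 0.062 (below 0 without BAZ2A-ΔTAM replicate 2 or 4), *Heatr1* from -0.016 to 0.011 and *Rrp1b* from -0.037 to 0.0085 (both above 0 without BAZ2A-WT replicate 3). The lowest reads were those of *Taf1a*, *Taf1b*, *Taf1c* and *Polr1e*, with under 300 per library.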
